A study of Mus musculus with 4 samples.

Results

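Imprinted genes are the subject here, that is, genes transcribed mainly from the allele inherited from 1 parent. The members are 52 named mouse genes from 19 imprinted domains, and they were found on the arrays by the gene symbol that the platform's annotation gives to each probe set. Of the 52 genes, 45 had a probe set annotated to them alone, out of 22180 genes measured in this way. Probe sets shared with another gene were the only ones for 4 members, H19, Snrpn, Rtl1 and Mirg, and 3 members, Slc22a3, Zrsr1 and Commd1, had none under their symbol. The limit for testing was a log2 signal of 6 on any array; 44 of the 45 reached it, and Slc22a2, with signals between 5.12 and 5.62, was not tested.

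RNA came from P19 cells, which derive from a mouse embryonal carcinoma and differentiate in retinoic acid, and was hybridised to Affymetrix arrays. The groups were the Ctcfl line after 4 days in 10 µM retinoic acid, wild-type cells after the same treatment, the Ctcfl line undifferentiated in vehicle (ethanol) and wild-type cells undifferentiated in vehicle, with 1 array for each of the 4. The Ctcfl line is a clone with the stable integrates pBI-EGFP-FLAG-mCtcfl and pTA-N, kept in 2 µg/ml doxycycline and grown without it for 2 days so that Ctcfl was expressed (Tet-Off). Wild-type cells are labelled WT in place of an integrate, and the labels disagree on whether they also received doxycycline, so a line difference covers Ctcfl, the vectors, clonal origin and possibly the drug. There were no replicates, so no test is given for a difference between single arrays. Where probe sets of 1 gene could be set against each other, their log2 differences varied with an SD of 0.226 to 0.331 over 874 genes, which is a technical spread only. Effects averaged over both lines or both states came from limma, with additive terms for treatment and line, so that the error is how far the lines disagree, and Benjamini-Hochberg adjustment covered all 18310 genes that reached the limit.

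Imprinted domains are controlled by regions of DNA that are methylated on only 1 parental allele, a mark set in the germ line and kept through early development. At the H19/Igf2 domain the insulator protein Ctcf binds the unmethylated maternal control region and separates Igf2 from its enhancers, while the methylated paternal allele expresses Igf2. Ctcfl, also called BORIS, has zinc fingers closely related to those of Ctcf, is normally found in the testis, and binds many of the same sequences. Zfp57, a zinc finger protein, protects the methylated allele of many control regions by binding a methylated hexamer. Imprinted genes include many regulators of fetal growth, and several of them are transcribed strongly in mesoderm and endoderm of the embryo.

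The promoters of Grb10, Igf2, Zim1 and Plagl1, 4 of the members with line differences of at least 2-fold in retinoic acid, are shown first. They are the sequences nearest to the starts of genes the results turn on. Magel2 and Nnat also differed by that much, and their windows are not printed. Each window holds 250 bases before and 50 bases after a RefSeq start site of GRCm38.p6, on the gene's strand, and capitals mark matches on either strand to TGCCGC, the Zfp57 hexamer, or AGGNGGC, part of the Ctcf core motif. For genes with several start sites the window with the most matches is printed.
Grb10 promoter window, chr11:12037371-12037670, minus strand: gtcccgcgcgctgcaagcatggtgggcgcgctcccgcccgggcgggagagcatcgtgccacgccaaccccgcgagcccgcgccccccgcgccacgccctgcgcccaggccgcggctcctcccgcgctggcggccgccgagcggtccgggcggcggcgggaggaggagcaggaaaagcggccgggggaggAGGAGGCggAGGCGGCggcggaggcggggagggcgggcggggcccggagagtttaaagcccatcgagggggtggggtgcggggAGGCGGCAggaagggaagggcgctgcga
Igf2 promoter window, chr7:142657447-142657746, minus strand: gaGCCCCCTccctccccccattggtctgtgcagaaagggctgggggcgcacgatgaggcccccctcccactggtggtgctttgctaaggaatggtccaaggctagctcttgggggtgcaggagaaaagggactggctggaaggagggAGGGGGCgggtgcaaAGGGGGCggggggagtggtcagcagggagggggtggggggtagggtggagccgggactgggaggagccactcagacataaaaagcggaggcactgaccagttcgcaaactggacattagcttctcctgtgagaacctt
Zim1 promoter window, chr7:6696383-6696682, minus strand: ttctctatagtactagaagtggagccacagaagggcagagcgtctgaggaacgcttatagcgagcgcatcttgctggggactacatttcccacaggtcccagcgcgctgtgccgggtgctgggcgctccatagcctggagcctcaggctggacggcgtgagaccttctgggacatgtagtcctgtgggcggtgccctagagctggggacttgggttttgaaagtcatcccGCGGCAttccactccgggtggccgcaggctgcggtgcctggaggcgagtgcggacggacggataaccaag
Plagl1 promoter window, chr10:13090582-13090881, plus strand: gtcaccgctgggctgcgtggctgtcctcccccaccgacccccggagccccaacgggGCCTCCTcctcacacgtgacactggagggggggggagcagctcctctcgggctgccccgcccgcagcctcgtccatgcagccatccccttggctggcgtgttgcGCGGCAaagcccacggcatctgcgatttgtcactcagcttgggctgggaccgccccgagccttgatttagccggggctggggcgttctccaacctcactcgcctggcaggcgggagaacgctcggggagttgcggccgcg
The Grb10 window held 3 matches to AGGNGGC and 1 to TGCCGC, and the last of them overlap in the printed run of capitals. The Igf2 window held 3 matches to AGGNGGC, the Zim1 window 1 to TGCCGC, and the Plagl1 window 1 to each. Of the windows not printed, that of Magel2 held 1 match to AGGNGGC and 0 to TGCCGC, and that of Nnat 1 to each. Of 44 members with a promoter in the RefSeq table, 14 (31.8%) held TGCCGC in at least 1 window, against 13.1% of 27025 genes. AGGNGGC was in 22 of the 44 (50%), against 31.8% of all genes. Member windows had a median GC content of 57.7% and 15 CpG, against 52.7% and 7 CpG over all windows. The part of base composition in the motif shares was not tested. A match of letters is a description and no binding site was measured here.

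Small RNAs of 2 domains share probe sets with members, and their mature sequences are shown because those signals cannot be divided between the microRNA and its host transcript. Mir675 lies in the first exon of H19, and the microRNAs opposite Rtl1 are transcribed from the maternal allele and can cleave the paternal Rtl1 message. Capitals mark the seed, bases 2 to 8.
mmu-miR-675-5p: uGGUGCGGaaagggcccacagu
mmu-miR-675-3p: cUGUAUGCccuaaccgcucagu
mmu-miR-127-3p: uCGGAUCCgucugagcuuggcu
mmu-miR-433-3p: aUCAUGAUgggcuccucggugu
mmu-miR-485-3p: aGUCAUACacggcucuccucuc
The 16 microRNA genes on these shared probe sets had 28 mature sequences in RefSeq with 27 distinct seeds, and the repeated one belongs to the 2 copies of miR-1906. The RefSeq sequences are of GRCm38.p6.

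The labels were checked first. Ctcfl had a log2 signal of 9.56 in the Ctcfl line and 7.13 in wild-type cells in retinoic acid, and 10.41 in the Ctcfl line and 7.86 in wild-type cells without it. The signal was thus higher in both states, and whether the probe set also reads the chromosomal gene is not given in the sources used here. Markers of pluripotent P19 cells were present undifferentiated, with Pou5f1 at 10.03 in the Ctcfl line and 9.37 in wild-type cells. All 10 genes of that list had lower signals in retinoic acid in both lines. Of all genes, 44.3% were higher in retinoic acid in the Ctcfl line and 45.3% in wild-type cells. In limma 7 of the 10 fell, where 2.44% of all genes did. Zfp42, a marker of naive pluripotency, lay between 6.12 and 6.46 on the 4 arrays, close to the limit. Olfactory receptor genes, used to gauge background, had array medians of 4.68 to 4.78 and 90th percentiles of 6.33 to 6.53, and 3 members past the limit, Kcnq1ot1, Airn and Rasgrf1, did not exceed the highest of these percentiles on any array.

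In limma 2 of 44 members rose with retinoic acid, Igf2 and Ndn, where 4.21% of all genes did. Another 3 members, Ascl2, Calcr and Magel2, fell, where 2.44% of all genes did. With the line, 1 member rose, Grb10, where 0.0273% of all genes did, and 0 fell, where 0.0164% of all genes did. At an unadjusted p under 0.05 the line effect was positive in 4 members (5.14% of all genes) and negative in 6 (4.66% of all genes).

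The signals of the members on which these results turn are plotted for all 4 arrays.

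**Figure D1:**
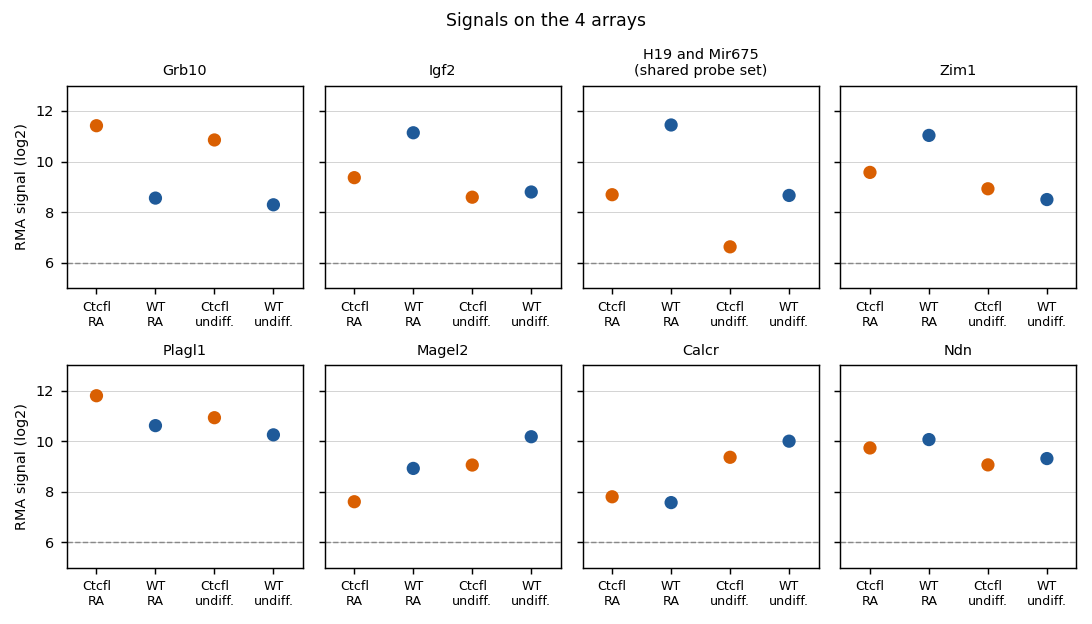
RMA signal (log2, vertical axis) of 7 imprinted genes and of the probe set shared by H19 and Mir675 on the 4 arrays, where RA is retinoic acid, WT is wild type, orange points are the Ctcfl line, blue points are wild type and the dashed line is the signal limit of 6. Grb10 was near 11 in the Ctcfl line and between 8.29 and 8.55 in wild-type cells, whereas Igf2, the H19 and Mir675 probe set and Zim1 were highest in wild-type cells in retinoic acid.

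Among the 10 members that act in growth and signalling, limma called Grb10 with the line, and Igf2 and Ndn with retinoic acid. Of all genes 0.0273% rose with the line and 4.21% with retinoic acid. Grb10 encodes an adaptor that binds the insulin and IGF1 receptors and restrains their signal, and outside neurons it is expressed from the maternal allele. Its log2 signal in retinoic acid was 11.42 in the Ctcfl line and 8.55 in wild-type cells. Undifferentiated, it was 10.85 in the Ctcfl line and 8.29 in wild-type cells. Both arrays of the Ctcfl line thus lay above both wild-type arrays, with folds of 7.28 in retinoic acid and 5.92 without it. In limma the line effect on Grb10 was a rise of log2 2.71 ± 0.16 (SE), or 6.56-fold, with an adjusted p = 0.00645 and a higher signal in 2 of 2 states. With the same fit over all 31136 probe sets past the limit, its adjusted p was 0.0916. Ddc, the neighbouring gene for aromatic amino acid decarboxylase, had line differences of -0.11 in retinoic acid and -0.11 undifferentiated.

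Igf2, the paternally expressed fetal growth factor, had a log2 signal in retinoic acid of 9.36 in the Ctcfl line and 11.14 in wild-type cells. Undifferentiated, its signal was 8.59 in the Ctcfl line and 8.80 in wild-type cells. The gene was therefore higher with retinoic acid in both lines, by log2 0.77 in the Ctcfl line and 2.34 in wild-type cells. Averaged over the lines in limma, Igf2 rose by log2 1.56 ± 0.34 (SE), or 2.94-fold, with an adjusted p = 0.0486 and a higher signal in 2 of 2 lines. This call was close to the threshold and did not pass without the signal limit (adjusted p = 0.0641), with the mean of probe sets (0.0550) or over all probe sets (0.112), the range over all settings being 0.0374 to 0.112. The difference between the responses, log2 -1.57, has no test because it is itself the error of the additive fit.

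The probe set annotated to both H19 and Mir675 is given here by its own values, since it cannot be credited to H19 alone. H19 is the maternally expressed noncoding RNA that shares enhancers with Igf2. In retinoic acid this probe set read 8.69 in the Ctcfl line and 11.45 in wild-type cells. Undifferentiated it read 6.63 in the Ctcfl line and 8.66 in wild-type cells, so it was lower in the Ctcfl line in both states, by factors of 6.77 in retinoic acid and 4.09 without it. In the limma fit over all probe sets, run after its values were seen, the probe set rose with retinoic acid (log2 2.43 ± 0.22, SE, adjusted p = 0.0203, higher in 2 of 2 lines). The line effect in that fit, log2 -2.40 ± 0.22, did not pass (adjusted p = 0.145). The line difference of Igf2 was -1.78 in retinoic acid and -0.21 undifferentiated, and whether the differences at the 2 probe sets differ from each other was not tested.

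Igf2r, the receptor that carries Igf2 to lysosomes, had a log2 signal of 7.36 in the Ctcfl line and 7.77 in wild-type cells in retinoic acid, and of 6.86 in the Ctcfl line and 6.81 in wild-type cells undifferentiated. Its average retinoic acid effect was log2 0.73 (adjusted p = 0.0595 in limma) and passed in 2 of the alternative settings. Ndn, a MAGE protein of differentiated neurons that restrains proliferation, had signals in retinoic acid of 9.74 in the Ctcfl line and 10.07 in wild-type cells, against 9.07 and 9.32 in the same lines undifferentiated. Ndn rose 1.64-fold with retinoic acid (adjusted p = 0.0414 in limma), and its adjusted p ranged from 0.0402 to 0.0845 over the settings, above the threshold in 3 of them.

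The remaining growth genes did not pass in either effect. Phlda2, which limits placental growth, had a retinoic acid difference of -0.95 in the Ctcfl line and -0.47 in wild-type cells. Dlk1, a membrane protein that inhibits adipocyte differentiation, differed by 0.33 in the Ctcfl line and 0.91 in wild-type cells. Cdkn1c, a CDK inhibitor, and Gnas, the stimulatory G protein subunit, had average retinoic acid effects of log2 -0.20 and 0.26. For Dio3, which inactivates thyroid hormone, and Rasgrf1, a Ras exchange factor, signals lay between 5.81 and 6.86.

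Of the 6 transcription regulators 1 fell with retinoic acid (2.44% of all genes) and 0 rose (4.21% of all genes). Ascl2, a bHLH factor needed in the trophoblast, had signals in retinoic acid of 7.54 in the Ctcfl line and 7.67 in wild-type cells, and undifferentiated of 8.38 in the Ctcfl line and 8.54 in wild-type cells. It fell by 0.86 on the log2 scale (adjusted p = 0.0224 in limma, lower in 2 of 2 lines), with an adjusted p of 0.0584 over all probe sets and a range of 0.0106 to 0.0584. The lines hardly differed at Ascl2, with -0.13 in retinoic acid and -0.16 undifferentiated.

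Plagl1, a zinc finger factor of growth control expressed from the paternal allele, read 11.80 in the Ctcfl line and 10.62 in wild-type cells in retinoic acid. Undifferentiated it read 10.93 in the Ctcfl line and 10.26 in wild-type cells. It was higher in the Ctcfl line in both states, by 2.27-fold in retinoic acid and log2 0.68 undifferentiated, but the line effect of log2 0.93 did not pass (adjusted p = 0.250 in limma). A weaker second probe set annotated to Plagl1 lay between 4.40 and 5.55, below the limit on every array. It differed by 0.56 in retinoic acid and 0.42 undifferentiated, in the same direction, but the strand it reads was not checked.

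Zim1, a maternally expressed zinc finger gene next to Peg3, read 9.57 in the Ctcfl line and 11.03 in wild-type cells in retinoic acid, and 8.92 in the Ctcfl line and 8.50 in wild-type cells undifferentiated. Wild-type cells in retinoic acid stood above the other 3 arrays. The retinoic acid difference was log2 0.65 in the Ctcfl line and 2.54 in wild-type cells, and the average effect of 1.59 did not pass (adjusted p = 0.0705 in limma). Peg3 itself, a paternally expressed zinc finger gene of the same domain, differed by 0.43 in the Ctcfl line and 0.56 in wild-type cells. Sfmbt2, a Polycomb-related gene, had a line difference of 0.27 in retinoic acid and 0.95 undifferentiated. Klf14, a Krüppel-like factor, lay between 7.67 and 7.92 on all arrays.

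Among 6 measured genes of the ubiquitin and trafficking group, Magel2 fell with retinoic acid (2.44% of all genes did) and the others did not pass. Magel2, a paternally expressed MAGE protein that works with ubiquitin ligases in endosomal sorting, read 7.61 in the Ctcfl line and 8.93 in wild-type cells in retinoic acid. Undifferentiated it read 9.06 in the Ctcfl line and 10.18 in wild-type cells. The gene was lower in both retinoic acid arrays than in the undifferentiated array of the same line, and in limma it fell by 1.35 ± 0.15 (SE) on the log2 scale, or 2.55-fold, with an adjusted p = 0.00611. It was also lower in the Ctcfl line by factors of 2.49 in retinoic acid and 2.17 undifferentiated, with a line effect of log2 -1.22 that did not pass (adjusted p = 0.0902). Mkrn3, a ubiquitin ligase gene of the same domain, had line differences of -0.31 in retinoic acid and -0.41 undifferentiated. Asb4, an adaptor of cullin ligases, had an average retinoic acid effect of log2 -0.57 (adjusted p = 0.0807 in limma). Ube3a, the ligase of Angelman syndrome, Usp29, a ubiquitin protease, and Copg2, a coat protein of Golgi vesicles, had average retinoic acid effects between log2 0.02 and 0.20.

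Of 5 measured genes for neural functions and transport, Calcr fell with retinoic acid, as did 2.44% of all genes. Calcr, the calcitonin receptor, read 7.81 in the Ctcfl line and 7.58 in wild-type cells in retinoic acid, and 9.37 in the Ctcfl line and 10.01 in wild-type cells undifferentiated. Both retinoic acid arrays lay below both undifferentiated ones, and in limma Calcr fell by 2.00 ± 0.22 (SE) on the log2 scale, or 3.99-fold, with an adjusted p = 0.00621. Nnat, a small proteolipid of the developing brain that lies within an intron of Blcap, read 7.92 in the Ctcfl line and 8.96 in wild-type cells in retinoic acid, and 8.10 in the Ctcfl line and 8.53 in wild-type cells undifferentiated. Its line effect of log2 -0.73 did not pass (adjusted p = 0.363), and a second probe set below the limit on every array differed by 0.06 and 0.50, in the other direction. Kcnq1, a potassium channel subunit, was lower in retinoic acid by 0.51 in the Ctcfl line and 0.35 in wild-type cells without passing, and Slc22a18, a transporter of the same domain, differed by 0.19 in the Ctcfl line and -0.45 in wild-type cells.

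The noncoding RNAs with a probe set of their own showed no call in either effect. Rian, a maternally expressed host of small nucleolar RNAs, lay between 10.84 and 11.18, and its line difference was 0.21 in retinoic acid and 0.34 undifferentiated. Meg3 is the long RNA at the start of the same maternal transcription unit. The probe set annotated to Meg3 alone lay between 6.76 and 6.83, but the strand it reads was not checked. The probe set that Meg3 shares with Mir770 lay between 8.79 and 9.28, with line differences of 0.30 in retinoic acid and 0.12 undifferentiated. The one annotated to Meg3 and the 2 copies of Mir1906 lay between 8.30 and 9.28 and differed by 0.21 and 0.62. Of these copies 1 lies on chromosome X, outside the domain, and which locus this probe set reads was not tested. The probe sets annotated to Meg3 thus did not read alike. Airn and Kcnq1ot1, paternal RNAs that silence their domains in cis, had signals between 5.90 and 6.53 and could not be told from background.

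Mirg had 3 probe sets shared with microRNA genes and Rtl1 had 6, of which 2 were below the limit; those with the largest line differences are given in full. The one annotated to Mir485 and Mirg read 8.03 in the Ctcfl line and 7.51 in wild-type cells in retinoic acid, and 7.47 in the Ctcfl line and 7.01 in wild-type cells undifferentiated. For the one annotated to Rtl1, Mir433 and Mir127, together with 1 clone name, the values in retinoic acid were 8.03 in the Ctcfl line and 7.56 in wild-type cells, and undifferentiated 7.71 in the Ctcfl line and 7.31 in wild-type cells. Neither line effect passed in the fit over all probe sets (adjusted p = 0.414 and 0.456). Of the others past the limit, the one of Mir369, Mir410 and Mir412 with Mirg differed between the lines by 0.37 in retinoic acid and 0.26 undifferentiated, and that of Mir134 with Mirg by -0.01 in both states. Rtl1 with Mir431 differed by 0.11 in retinoic acid and -0.15 undifferentiated, with Mir432 by -0.05 and -0.01, and with Mir3071 by -0.17 and -0.39. The probe sets annotated to Rtl1 thus disagreed in direction. Mir431 and Mir432 lie on the plus strand, opposite Rtl1, and Mir3071 on the minus strand. Which strand each probe set reads was not checked, so these values cannot be credited to Rtl1 itself.

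Snrpn, the paternally expressed gene that also encodes Snurf, had 2 probe sets annotated to both names. The brighter read 11.77 in the Ctcfl line and 11.89 in wild-type cells in retinoic acid, and 12.83 in the Ctcfl line and 12.996 in wild-type cells undifferentiated. It fell with retinoic acid in the fit over all probe sets (log2 -1.08 ± 0.15, SE, adjusted p = 0.0390, lower in 2 of 2 lines). The dimmer, with signals between 7.02 and 7.65, had a retinoic acid effect of 0.06 and did not pass (adjusted p = 0.897), so the 2 probe sets of this pair of names disagreed.

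The last groups held no call in limma. Peg10, a gene of retrotransposon origin needed in the placenta, differed with retinoic acid by -0.05 in the Ctcfl line and 0.24 in wild-type cells. The 12 tested genes in no other role group had retinoic acid differences between -0.36 and 0.53 in the Ctcfl line and between -0.17 and 0.59 in wild-type cells, and 0 of the 12 passed in limma (all 12 also did not pass for the line). Sgce, a sarcoglycan gene beside Peg10, was at the upper end with 0.49 in the Ctcfl line and 0.59 in wild-type cells. Mest, a hydrolase-like gene expressed in mesoderm, differed by 0.22 in the Ctcfl line and 0.31 in wild-type cells. H13, which encodes signal peptide peptidase, was higher in the Ctcfl line by 0.65 in retinoic acid and 0.20 undifferentiated, but its second probe set, at 6.24 to 6.54, differed by -0.21 and 0.30. Impact, an inhibitor of the kinase Gcn2, differed between the lines by 0.03 in retinoic acid and -0.49 undifferentiated.

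The responses to retinoic acid are shown for every member by domain.

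**Figure D2:**
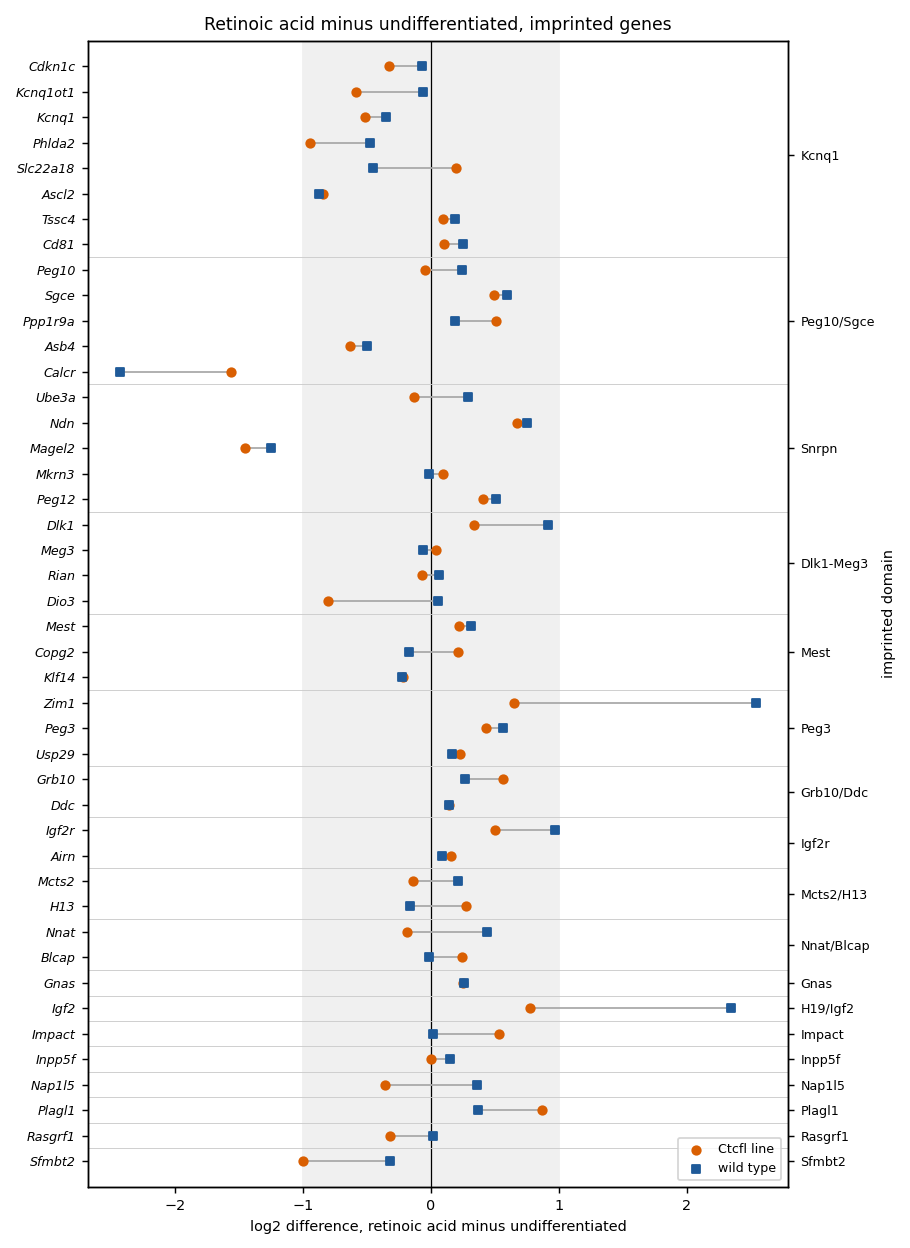
Log2 difference, retinoic acid minus undifferentiated (horizontal axis), of the 44 imprinted genes past the signal limit, grouped by domain, with circles for the Ctcfl line and squares for wild type, 1 array per condition, and the band marking differences under 2-fold. Calcr and Magel2 lie to the left in both lines, and Igf2 and Zim1 lie beyond the band on the right in wild-type cells only.

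In the Kcnq1 domain, whose 8 members were all tested, retinoic acid differences ran from -0.95 to 0.19 in the Ctcfl line and from -0.88 to 0.25 in wild-type cells. Of the 8, 1 fell in limma, Ascl2, where 2.44% of all genes did. The Snrpn domain held both a gene that rose, Ndn, and a gene that fell, Magel2, although both are expressed from the paternal allele. In the Peg10/Sgce domain Calcr fell, and the other 4 members differed by -0.63 to 0.50 in the Ctcfl line and by -0.50 to 0.59 in wild-type cells. The 3 members of the Peg3 domain were all higher in retinoic acid in both lines, from 0.23 to 0.65 in the Ctcfl line and from 0.16 to 2.54 in wild-type cells. Both tested members of the Igf2r domain and both of the Grb10/Ddc domain were also higher in both lines. Counted at 2-fold, 0 members were higher with retinoic acid in the Ctcfl line (3.21% of all genes) and 2 in wild-type cells (2.58%), namely Igf2 and Zim1. Lower by that factor were Calcr and Magel2, the same 2 members in the Ctcfl line (1.5% of all genes) and in wild-type cells (2.62%), with Sfmbt2 just short of it in the Ctcfl line at log2 -0.998. The member median was log2 0.10 in the Ctcfl line and 0.14 in wild-type cells, beside -0.05 and -0.04 over all genes tested.

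Differences between the lines are shown in the same way.

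**Figure D3:**
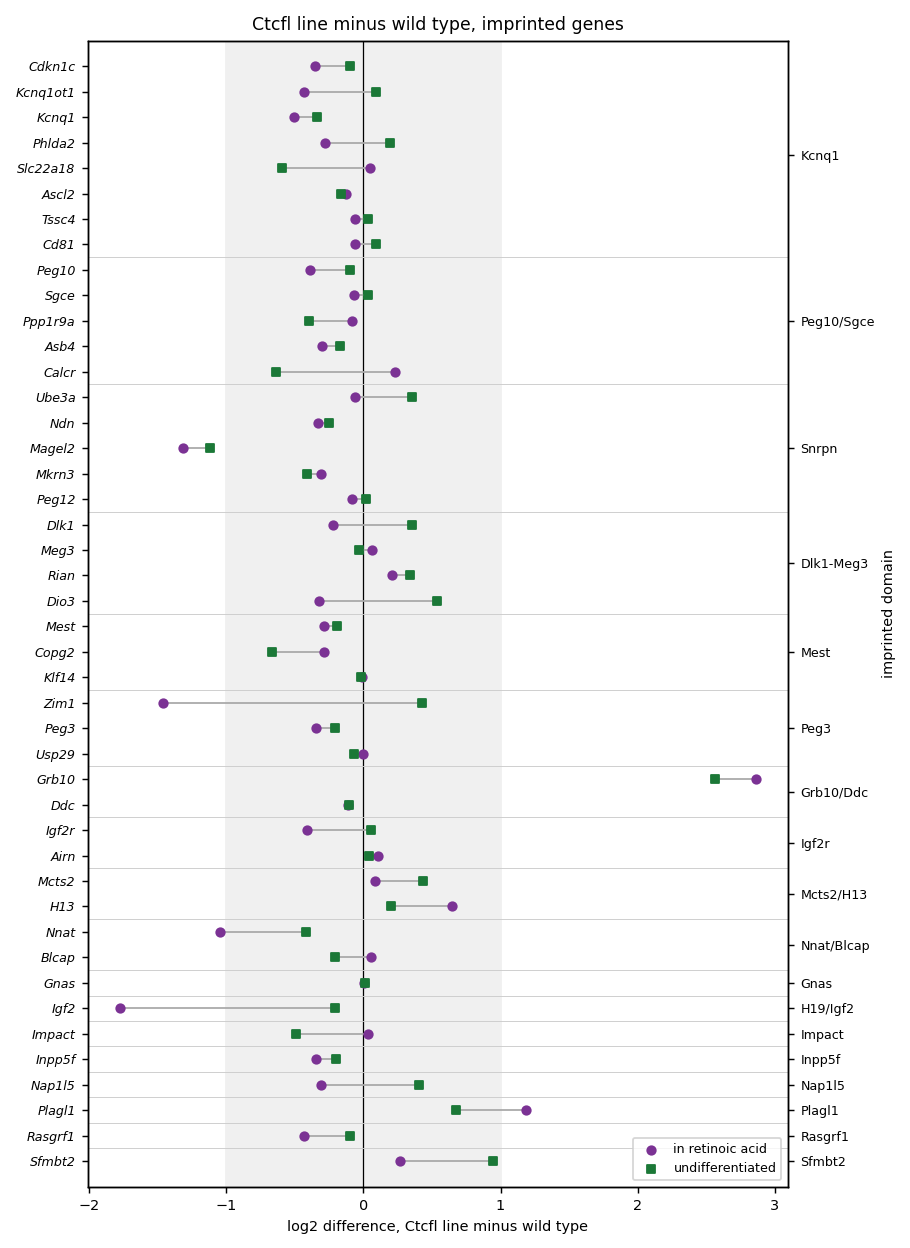
Log2 difference, Ctcfl line minus wild type (horizontal axis), of the same 44 genes by domain, with circles for retinoic acid and squares for undifferentiated cells, 1 array per condition, and the band marking differences under 2-fold. Grb10 lies far to the right and Magel2 to the left in both states, while Igf2 and Zim1 lie beyond the band on the left in retinoic acid but within it undifferentiated.

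At 2-fold or more in retinoic acid, the Ctcfl line was higher than wild type in 2 of 44 members, Grb10 and Plagl1 (0.83% of all genes), and lower in 4, Igf2, Zim1, Magel2 and Nnat (0.399% of all genes). Undifferentiated, 1 was higher, Grb10 (0.726% of all genes), and 1 was lower, Magel2 (1.09% of all genes). The SD of the line differences in retinoic acid was 0.675 over the members, Grb10 at 2.86 included, and 0.315 over all genes. Undifferentiated it was 0.548 over the members and 0.357 over all genes. In retinoic acid 8 of the 44 members lay outside the 5th to 95th percentile, a range that by definition leaves out 5% of all genes at each end. The count was also 8 for the line undifferentiated and for retinoic acid in each line. In retinoic acid 13 of the 44 members (29.5%) were above 0, where 46.1% of all genes were, and 31 were below 0. Undifferentiated, 20 of the 44 (45.5%) were above 0, beside 46.8% of all genes. Among domains with 3 or more tested members, those below 0 in retinoic acid were all 5 in the Snrpn domain, all 3 in the Mest domain and all 3 in the Peg3 domain. They were 7 of 8 in the Kcnq1 domain, 4 of 5 in the Peg10/Sgce domain and 2 of 4 in the Dlk1-Meg3 domain. The 2 members of the Mcts2/H13 domain were above 0 in both states. The difference of the responses, Ctcfl line minus wild type, was at least 2-fold and negative in 2 members, Igf2 and Zim1 (0.754% of all genes), and at least 2-fold and positive in 0 (1.9% of all genes).

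In bulk RNA, fewer cells of a type and less RNA per cell cannot be told apart, and markers of other cell types differed beside Igf2, Zim1 and the H19 and Mir675 probe set. The 14 mesenchyme markers had a summed log2 signal in retinoic acid of 111.7 in the Ctcfl line and 120.2 in wild-type cells. Of the 14, 12 were lower and 2 higher in the Ctcfl line in retinoic acid, where 46.1% of all genes were higher. The differences were uneven, from -2.10 (Osr1) to 0.82 (Pdgfra). At least 2-fold lower were 4, Osr1, Twist1, Dcn and Lum (0.399% of all genes), while Col1a1 and Col3a1 differed by -0.01 and -0.14. Undifferentiated, the mesenchyme sum was 102.3 in the Ctcfl line and 103.9 in wild-type cells. The 15 endoderm markers summed to 118.6 in the Ctcfl line and 125.0 in wild-type cells in retinoic acid, with 13 of 15 lower in the Ctcfl line. Their line differences there ran from -1.22 (Ttr) to 0.45 (Lama1), and 2 were at least 2-fold lower, Ttr and Gata6. Undifferentiated, they summed to 112.4 in the Ctcfl line and 112.6 in wild-type cells. The 14 neural markers summed to 112.6 in the Ctcfl line and 113.4 in wild-type cells in retinoic acid, and to 114.3 in the Ctcfl line and 114.3 in wild-type cells undifferentiated. The 10 trophoblast markers past the limit summed to 79.5 in the Ctcfl line and 80.0 in wild-type cells in retinoic acid. In that state 8 of the 10 were lower in the Ctcfl line and 2 higher. Undifferentiated, they summed to 80.5 in the Ctcfl line and 77.1 in wild-type cells. There 8 of the 10 were higher in the Ctcfl line, as were 46.8% of all genes. The 10 pluripotency markers summed to 85.0 in the Ctcfl line and 83.4 in wild-type cells in retinoic acid. Undifferentiated, they summed to 103.1 in the Ctcfl line and 100.7 in wild-type cells. In retinoic acid 4 of these 10 were lower in the Ctcfl line and 6 higher, and of the neural markers 7 were lower and 7 higher. The part of these cell types in the member differences, that of Grb10 included, was not tested.

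Members were also sorted by the parental allele they are expressed from. Of 22 tested paternally expressed members, 13 had higher signals with retinoic acid within the Ctcfl line and 18 within wild-type cells. Of 18 maternally expressed members, 9 did in the Ctcfl line and 8 in wild-type cells. Over all genes the share was 44.3% in the Ctcfl line and 45.3% in wild-type cells. The class medians of the response were log2 0.15 in the Ctcfl line and 0.23 in wild-type cells for paternal expression, and -0.02 in the Ctcfl line and -0.07 in wild-type cells for maternal expression. With retinoic acid limma called 2 of the 22 paternally expressed members as rising and 1 as falling. Of the 18 maternally expressed ones it called 0 as rising and 2 as falling. Over all genes 4.21% rose and 2.44% fell, and the difference between the classes was not tested. Leaving out genes that are imprinted in certain tissues or isoforms only, 21 paternally expressed members had a median of 0.15 in the Ctcfl line and 0.24 in wild-type cells, and 10 maternally expressed ones -0.15 and -0.15.

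The classes are plotted for all 4 comparisons.

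**Figure D4:**
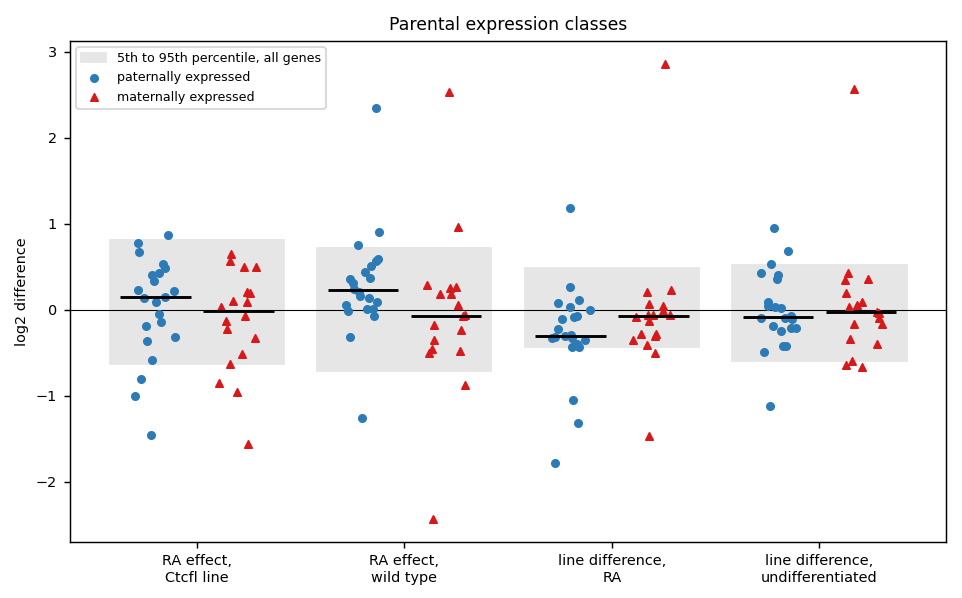
Log2 differences (vertical axis) of 22 paternally expressed members (circles) and 18 maternally expressed members (triangles) for the retinoic acid effect in each line and the line difference in each state, with RA for retinoic acid, a black bar for the class median and grey for the 5th to 95th percentile of all genes. The medians lie between -0.30 and 0.23, and single genes such as Grb10 and Calcr lie far from them.

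In retinoic acid 5 of 22 paternally expressed members and 5 of 18 maternally expressed members were above 0 in the Ctcfl line against wild type, where 46.1% of all genes were. The medians of the line difference in retinoic acid were log2 -0.30 for paternal expression and -0.07 for maternal expression, and undifferentiated -0.08 and -0.03. Domains were also sorted by the allele on which the control region is methylated. The 6 tested members under paternally methylated regions (H19/Igf2, Dlk1-Meg3 and Rasgrf1) had a median line difference of -0.27 in retinoic acid and 0.15 undifferentiated. The 38 under maternally methylated regions had -0.10 in retinoic acid and -0.08 undifferentiated.

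Of 24 listed genes that set or keep imprints 22 reached the limit and, apart from Ctcfl, 0 changed with the line in limma. With the line 0.0273% of all genes rose and 0.0164% fell. With retinoic acid 1 rose (4.21% of all genes) and 3 fell (2.44% of all genes), Ctcfl among the latter. Dnmt3b, a de novo DNA methyltransferase, fell by 2.82 on the log2 scale (adjusted p = 0.000529 in limma), and its cofactor Dnmt3l fell by 1.05 (adjusted p = 0.0133). Tet2, which oxidises methylated cytosine, rose 2.53-fold (adjusted p = 0.0119). The maintenance methyltransferase Dnmt1 lay between 11.40 and 11.47 on the 4 arrays, Zfp57 between 9.73 and 10.03, its corepressor Trim28 between 12.24 and 12.38, and Ctcf between 10.61 and 10.87.

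The insulin-like growth factor pathway around Igf2, Igf2r and Grb10 was measured for 23 of 26 listed genes. In limma 3 of them rose with retinoic acid (4.21% of all genes), 1 fell (2.44% of all genes) and 0 changed with the line. Over all genes 0.0273% rose and 0.0164% fell with the line. Igfbp5, a secreted binding protein for IGFs, read 9.49 in the Ctcfl line and 10.85 in wild-type cells in retinoic acid, and 7.07 in the Ctcfl line and 7.34 in wild-type cells undifferentiated. It rose 7.81-fold with retinoic acid (adjusted p = 0.00261 in limma), and Igfbp4 and the kinase gene Akt1 rose by log2 1.34 and 1.23 (adjusted p = 0.00709 and 0.00996). Irs4, an insulin receptor substrate, fell by 0.84 (adjusted p = 0.0360). The Grb10 paralogs Grb7 and Grb14 had line differences of -0.50 and 0.15 in retinoic acid and of -0.62 and -0.30 undifferentiated.

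A further list of 42 names of genes reported as imprinted, none of them a member by symbol, had 36 past the limit. In limma 3 of these rose with retinoic acid (4.21% of all genes), 2 fell (2.44% of all genes) and 0 changed with the line. Over all genes 0.0273% rose and 0.0164% fell with the line. Casd1, a sialic acid acetyltransferase gene beside Sgce, rose by log2 1.01 (adjusted p = 0.0134). Gab1, an adaptor of receptor tyrosine kinases, rose by log2 1.19 (adjusted p = 0.0133) and Phactr2, a regulator of protein phosphatase and actin, by 0.82 (adjusted p = 0.0453). Atp10a, a lipid flippase gene, fell by 0.86 (adjusted p = 0.0256) and the decoy receptor gene Tnfrsf22 by 0.79 (adjusted p = 0.0461). Qpct, which forms pyroglutamate at peptide ends, was 2.41-fold higher in the Ctcfl line in retinoic acid and did not pass.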

How the data were processed

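P19 RNA was measured on 4 arrays, 1 per condition, so precision is limited by their number. The deposited values are log2 signals made by the authors with RMA in Affymetrix Expression Console, per the labels; Transcriptome Analysis Console is named too in the submitters' processing notes. RMA corrects background, normalizes between arrays and summarises probe sets, which can compress differences of weak or very bright genes. Versions and the genome build are not given in the sources used here.

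Of 41345 probe sets, 23521 had 1 gene symbol, 1814 several and 16010 none in the platform annotation. Each of 22180 genes was represented by 1 probe set, the one of highest mean among those annotated to it alone, and 18310 whose highest signal reached log2 6 were tested. Which strand a probe set reads was not checked, so probe sets annotated to 1 gene may not read the same transcript. Limma 3.58.1 (R 4.3.3) fitted retinoic acid and line as additive terms with 1 residual degree of freedom, 5.49 prior degrees of freedom and a threshold of 0.05 on two-sided p-values adjusted by Benjamini-Hochberg. The procedure was also run on simulated data with additive effects and noise drawn from the variance prior of the fit. That run cannot show how the procedure behaves where the lines respond differently. All 52 members could be named, and of other lists the genes called by limma or at least 2-fold apart, with Ctcf and Ctcfl; flat regulators, relatives of Grb10 and markers were named for comparison after their values were seen. Members, domains, classes and lists were chosen with earlier results of these data known. Domains, classes and roles come from general knowledge, not from these data. Alternatives were no limit, a limit of log2 7, quantile normalization, the mean of probe sets, a variance prior with trend, a 3-fold threshold and, added after seeing the data, a fit over all probe sets.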

Additional observations from a re-analysis of the deposited data

Results flagged for a closer look

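Among the members and the genes of all lists past the signal limit, 8 had line differences of opposite sign in the 2 states, or responses to retinoic acid of opposite sign in the 2 lines, with a gap of at least log2 1, and the gap was not tested because it rests on 1 array per condition. Zim1 differed between the lines by -1.46 in retinoic acid and 0.43 undifferentiated, a gap of -1.89. Ano1, a chloride channel gene of the further imprinted list, responded to retinoic acid by 0.38 in the Ctcfl line and -0.76 in wild-type cells, a gap of 1.14. Pappa2, a protease of IGF binding proteins, responded by -0.23 in the Ctcfl line and 0.97 in wild-type cells, a gap of -1.19, with signals of 5.33 to 6.30 that are close to background. The other 5 are cell type markers. Among mesenchyme markers, Twist1 responded by -0.26 in the Ctcfl line and 2.39 in wild-type cells (gap -2.65), and Osr1 differed between the lines by -2.10 in retinoic acid and 0.13 undifferentiated (gap -2.23). Cdx2, a trophoblast marker, responded by -1.26 in the Ctcfl line and 0.07 in wild-type cells (gap -1.33). Sox7, an endoderm marker, responded by -0.17 in the Ctcfl line and 0.94 in wild-type cells (gap -1.11). Pax6, a neural marker, differed between the lines by -0.83 in retinoic acid and 0.30 undifferentiated (gap -1.13).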

How the results depend on the processing

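Leaving out an array leaves no residual degrees of freedom, so it was not run. No paired analysis was possible because each condition has 1 array and the labels give no replicate numbers that pair arrays. Calcr and Magel2 fell with retinoic acid in every setting run, and Grb10 rose with the line in all but the fit over all probe sets (adjusted p from 0.00209 to 0.0916). Members rising with retinoic acid numbered 2, but 0 without the signal limit, 1 with the mean of probe sets, 3 with quantile normalization (Igf2r added), 3 with the trended prior (Igf2r and Peg3 added, Ndn lost) and 0 in the fit over all probe sets, where 0 members also rose with the line. The adjusted p for retinoic acid ranged from 0.0171 to 0.167 for Peg3 and from 0.0429 to 0.113 for Igf2r. The last fit tests more features, 31136 in place of 18310. Members falling with retinoic acid numbered 3, 5 with quantile normalization, which added Asb4 and Phlda2, and 2 in the fit over all probe sets. Counts at 2-fold moved as follows. Lower with retinoic acid in the Ctcfl line were 4 with quantile normalization and 0 at 3-fold, in place of 2, and in wild-type cells 1 at 3-fold in place of 2. Higher in the Ctcfl line in retinoic acid were 1 with the mean of probe sets and 1 at 3-fold, in place of 2, and lower 1 at 3-fold and 3 with the mean of probe sets, in place of 4. Undifferentiated, 0 were lower at 3-fold in place of 1, and the difference of responses was negative in 1 at 3-fold in place of 2. The sign turned with quantile normalization in 8 effects near 0, which were called in no setting: the retinoic acid effects of Copg2 (-0.0061), Inpp5f (-0.026), Mcts2 (-0.053), Meg3 (0.0037), Mkrn3 (-0.032), Nap1l5 (0.0072) and Rian (0.022), and the line effect of Gnas (-0.036). The cause of these changes was not tested. Other counts stayed within 1.5 times and member medians moved by less than the SD among probe sets of 1 gene, for example from 0.10 to 0.05 with quantile normalization for retinoic acid in the Ctcfl line, from -0.12 to -0.19 with it for the line in retinoic acid, and from -0.05 to -0.03 with the mean of probe sets for the line undifferentiated. Of the single effects 497 kept their side of the threshold, 5 passed it newly and 8 no longer passed.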
